A study of Capra hircus with 4 samples.

Results

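The 9 genes described here are interferon response genes, namely STAT2, IRF9, IRF1, IRF7, IFIT2, IFIT3, MX1, MX2 and ISG15. They were taken by gene symbol from the 20326 genes listed for each library, and all 9 were found. The RNA was that of secondary hair follicle stem cells, which maintain the follicles of the fine cashmere undercoat, isolated from the back skin of cashmere goats (Capra hircus) and grown in culture. Cells taken in April represent early anagen, the start of hair growth, and cells taken in October represent mid anagen, with 1 female and 1 male library each. Wherever a pair of values is given for a phase, the female library comes first and the male library second. The labels call the libraries of a phase biological replicates, without saying whether each is 1 animal or a pool, and give no age or treatment. Sampling month and phase of the hair cycle cannot be told apart, since each phase was sampled in 1 month.

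Interferons are secreted proteins that warn cells of infection. Type I interferons bind a receptor made of IFNAR1 and IFNAR2, whose kinases JAK1 and TYK2 phosphorylate STAT2, which joins IRF9 in the ISGF3 complex, which switches on the antiviral genes. Type II interferon, or interferon gamma, acts through a receptor made of IFNGR1 and IFNGR2, and its targets include genes of antigen presentation. Epithelial cells keep a low level of many of these genes even without infection, and the hair follicle is known as a site of restrained immune activity.

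Values are the authors' abundances per gene. The labels name kallisto without giving the unit, and the values are taken here as normalised for transcript length, which is what setting levels of different genes side by side rests on. The number of reads behind them is unknown. Summed over all genes they came to between 844960 and 1186966 per library, with between 12040 and 12458 genes at 1 or more. Keratinocyte genes were abundant in all 4 libraries but differed between the phases. KRT14 was at 20587 and 23511 in April and 9603 and 8956 in October, and the 6 keratinocyte and follicle markers found summed to 37082 and 42244 in April and 17570 and 18866 in October. Of the 6, KRT5 and KRT14 were lower and the follicle stem cell factors SOX9 and LHX2 higher in both mid libraries. LHX2 was at 9.54 and 6.94 in April and 31.7 and 32.1 in October and rose (limma adjusted p = 0.0431). Leukocyte markers were low, with 6 of the 9 found under 1 in every library and PTPRC, the pan-leukocyte marker, listed at 0 in all 4. Their sum was 12.6 and 10.5 in April and 25.6 and 19.3 in October, and CD14 made up 12.6 and 8.52 of the mid sums. Endothelial markers were all under 1, with CDH5 at 0 in every library, and of 4 melanocyte markers DCT was at 0 in every library and TYR in 3. Fibroblast markers differed as well. All 6 were higher in both mid libraries than in both early libraries. All 6 were under 1 in both early libraries, so those tested entered the test only through the mid libraries, which fixed their direction. Of all genes tested, 31.5% were higher in both mid libraries. Their sum was 0.575 and 2.35 in April and 161 and 42.0 in October. PDGFRA was under 1 in every library and was not tested. Of the 6, DCN was at 0 in the early female library and none was at 0 in all libraries. The part of the keratinocyte and fibroblast markers in the differences below was not tested. In bulk RNA, a change in the share of a cell type and a change in RNA per cell cannot be told apart.

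Of the 9 genes, 6 had higher abundance in both mid anagen libraries than in both early anagen libraries, and none was lower in both. The 6 were STAT2, IRF9, IRF1, IFIT2, IFIT3 and MX1. Among all 12486 genes tested, 31.5% were higher and 30.9% lower in both mid libraries. With phase as the only term, none of the 9 passed the test across all genes (limma on log2(value + 1), Benjamini-Hochberg adjusted p under 0.05). That threshold was passed by 0.304% of all genes. At an unadjusted p under 0.05 there were 5, all higher at mid anagen, against 13.2% of all genes in that direction, 14.7% in the lower and 27.9% in either. The median log2 fold change of the 9 was 0.86, and 0.74 over the 8 without IFIT2, beside 0.01 over all genes tested. It was 0.46 without the mid male library and 0.51 without the early male library or with a pseudocount of 5. IFIT2, counted in the 6 and in the 5, reached 1 in the mid libraries alone. It so entered the test only through them, which fixed its direction.

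**Figure D1:**
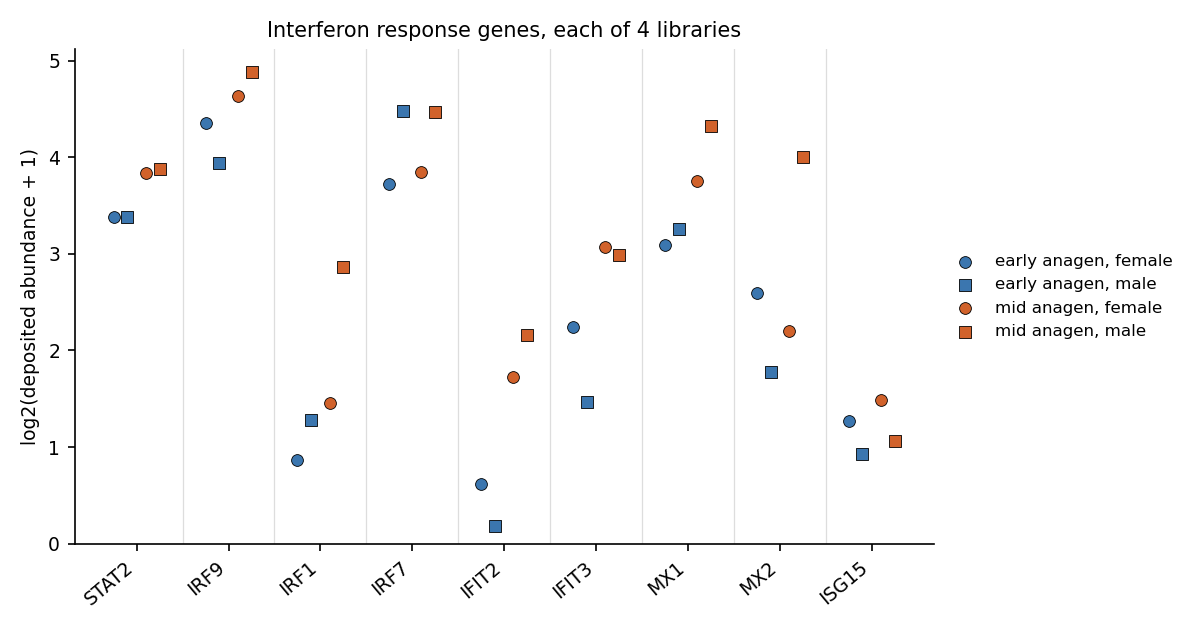
Abundance of each of the 9 genes in each of the 4 libraries on the log2(value + 1) scale, blue for early and orange for mid anagen, circles for female and squares for male. For STAT2, IRF9, IRF1, IFIT2, IFIT3 and MX1 both orange points lie above both blue points, while IRF7 separates by sex and MX2 is high in the mid male library.

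STAT2 and IRF9, which belong to ISGF3, were both higher at mid anagen. By Euclidean distance of centred log2 values over the 4 libraries they were the closest 2 of the 9 genes, at 0.36. The distance is not scaled for how much a gene varies, so genes that vary little lie close. The next pair was ISG15 and STAT2, at 0.50, although the phase groups of ISG15 overlapped. STAT2 (GeneID 102190301) was at 9.40 and 9.43 in April and 13.4 and 13.7 in October. The libraries of a phase nearly coincided, and the groups did not overlap. The log2 fold change was 0.48 (SE 0.14, 95% interval 0.13 to 0.83, limma adjusted p = 0.111, n = 2 per phase). IRF9 (GeneID 102190231), the DNA-binding part of the complex, was at 19.5 and 14.3 in April and 23.8 and 28.5 in October. Here too the groups did not overlap, and the mid mean was 1.55 times the early mean (log2 fold change 0.61, SE 0.20, limma adjusted p = 0.133). Without the early male library the log2 fold change of IRF9 was 0.40. IRF9 was more abundant than STAT2 in every library.

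The interferon regulatory factors IRF1 and IRF7 had different patterns. IRF1 (GeneID 102188583), a factor induced by interferon gamma and by NF-kappaB signals, was at 0.818 and 1.43 in April and 1.74 and 6.31 in October. The mid male library stood well above the other 3, which lay within 1 unit of each other. The log2 fold change was 1.09 (SE 0.48, limma adjusted p = 0.208), made of 0.59 between the female libraries and 1.59 between the male libraries, and it was 0.39 without the mid male library and 1.80 without the mid female library. IRF7 (GeneID 106503773), which amplifies the production of type I interferon, was at 12.2 and 21.3 in April and 13.4 and 21.1 in October. Its phase groups overlapped fully, with a log2 fold change of 0.05 and a 95% interval from -0.76 to 0.87.

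IFIT2 and IFIT3, antiviral proteins of the tetratricopeptide repeat family whose genes lie next to each other in the RefSeq order of goat genes, were both higher in the mid libraries. IFIT2 (GeneID 102169450) was at 0.532 and 0.134 in April and 2.30 and 3.46 in October. Both early values were under 1, and the mid mean was 8.65 times the early mean at these low levels. The log2 fold change was 1.54 (SE 0.27, limma adjusted p = 0.0724) and depended on the pseudocount, at 2.93 with 0.1 and 0.56 with 5. IFIT3 (GeneID 102168968) was at 3.72 and 1.77 in April and 7.38 and 6.94 in October. Its mid libraries were close together and both above the higher early library, the female one (log2 fold change 1.17, SE 0.28, limma adjusted p = 0.0861). IFIT2 stood at 0.143 and 0.0757 of IFIT3 in April and 0.311 and 0.499 in October. Among 9435 other genes with a symbol and a mean of at least 5, the 3 whose profile over the 4 libraries lay closest to that of IFIT3, by Euclidean distance of centred log2 values, were CRABP2, a retinoic acid binding protein, IER5L and PLCXD1. CRABP2 was at 596 and 365 in April and 1169 and 1067 in October. With 4 libraries such a likeness is a description only.

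The dynamin-like antiviral GTPases MX1 and MX2, neighbours in the RefSeq gene order, did not share a pattern. MX1 (GeneID 102188635) was at 7.54 and 8.58 in April and 12.5 and 19.0 in October. The groups did not overlap, and the mid mean was 1.95 times the early mean (log2 fold change 0.86, SE 0.23, limma adjusted p = 0.0966). MX2 (GeneID 108636422) was at 5.06 and 2.43 in April and 3.62 and 15.1 in October. Its mid female value lay between the early values, and the mid male value stood apart from the other 3. The log2 fold change of 0.92 had an SE of 0.62 and a 95% interval from -0.63 to 2.46. The log2 fold change was 0.02 without the mid male library, 0.51 without the early male and 1.82 without the mid female. MX2 per unit of MX1 was at 0.671 and 0.284 in April and 0.290 and 0.793 in October. How reads shared by such related genes were divided is not stated in the labels, so each value of MX1, MX2, IFIT2 and IFIT3 is uncertain to that extent.

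ISG15 (GeneID 102169982), a ubiquitin-like protein that is attached to other proteins after interferon exposure, was low throughout. It was at 1.41 and 0.907 in April and 1.79 and 1.09 in October. The phase groups overlapped, with a log2 fold change of 0.17 and a 95% interval from -0.47 to 0.82. The abundance of ISG15 was 0.187 and 0.106 of that of MX1 in April and 0.144 and 0.0573 in October. The genes that attach ISG15 were present at higher abundance than ISG15 itself. UBE2L6, the conjugating enzyme, was at 35.3 and 41.3 in April and 38.6 and 36.1 in October, and UBA7, the activating enzyme, at 11.5 and 11.3 in April and 11.1 and 13.4 in October.

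**Figure D2:**
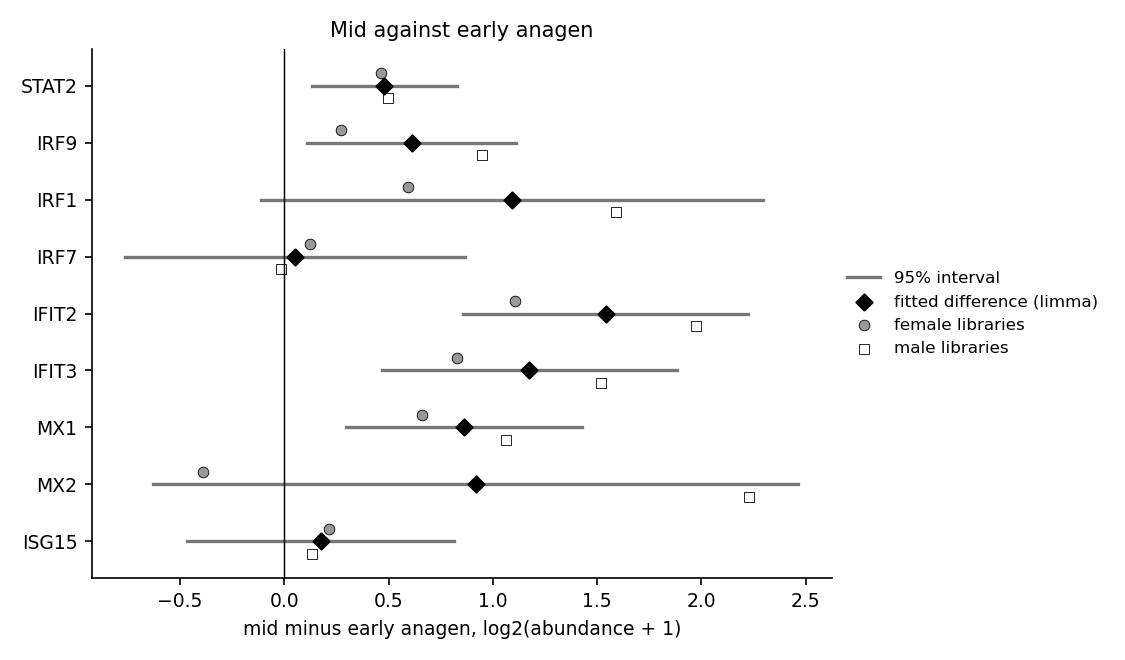
Mid minus early anagen for the 9 genes on the log2(value + 1) scale, with the fitted difference (diamond), its 95% interval (line), and the difference between the female libraries (circle) and between the male libraries (square). The intervals of STAT2, IRF9, IFIT2, IFIT3 and MX1 lie above 0, those of IRF1, IRF7, MX2 and ISG15 cross it, and the circle and square of MX2 lie at -0.39 and 2.23.

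The order of the 9 genes by abundance was much the same in each library. IRF9 was highest in 3 libraries and IRF7 in the early male, and IFIT2, IRF1 and ISG15 filled the 3 lowest places in all 4. IRF9 and IRF7 overlapped in range, as did IRF1, ISG15 and IFIT2, so neighbours at each end of the order did not differ beyond their spread. By mean log2 level the genes lay between the percentile 3.43 of all tested genes, for IFIT2, and 54.0, for IRF9. The mid male library held the highest value of 6 of the 9, whereas it held the highest value of 25.8% of all tested genes. IFIT3 and ISG15 were highest in the mid female and IRF7 in the early male library.

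The fold changes depended on single libraries, and the count of calls on scaling and on whether sex was a term. The fit with sex as a term is given under how the results depend on the processing. IFIT2 entered each fit of this paragraph only through its mid libraries, which fixed its direction. Without the mid female library, IFIT2, MX1, MX2 and IRF1 passed, where 5.87% of all genes passed. Without the mid male library none of the 9 passed, where 2.96% of all genes did. Without either early library 0 of all 12486 genes passed, so the count of the 9 says nothing there. Rescaling each library to a common total shifted the median log2 fold change of all genes by 0.31 and let IFIT2 pass (adjusted p = 0.0455), where 5.21% of all genes passed. The differences of PTPN1 and HERC6 below, which were negative and smaller than this shift, took the other sign with it.

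The receptor subunits and signalling proteins above these genes were abundant and had a median log2 difference of 0.54 over the 9 tested of 10. Of the 9, 8 were higher in both mid libraries and none was lower in both, 6 had an unadjusted p under 0.05, all of them higher, and 0 passed over all genes in limma. Of all genes tested, 31.5% were higher in both mid libraries, 13.2% were higher with an unadjusted p under 0.05, and 0.304% passed. Both subunits of the type I receptor were higher at mid anagen. IFNAR2 was at 11.1 and 9.93 in April and 18.8 and 19.1 in October (log2 fold change 0.80, SE 0.14, limma adjusted p = 0.0724). IFNAR1 was at 15.6 and 14.7 in April and 22.2 and 22.7 in October (log2 fold change 0.54, SE 0.14). For both subunits the libraries of a phase lay close together and the groups did not overlap. The type II receptor subunits were the more abundant ones. IFNGR1 was at 36.3 and 23.99 in April and 59.7 and 40.3 in October, and IFNGR2 at 57.6 and 45.3 in April and 95.9 and 71.7 in October. Their female libraries were higher than the male libraries of the same phase. IFNLR1, the subunit particular to the type III interferon receptor, was under 1 in every library and was not tested, while IL10RB, its partner, was at 24.7 and 23.2 in April and 33.7 and 26.2 in October. STAT3, a transducer of many cytokines, was at 47.8 and 41.2 in April and 86.2 and 84.3 in October (log2 fold change 0.93, SE 0.15, limma adjusted p = 0.0724). JAK1 was at 39.9 and 41.5 in April and 49.3 and 61.1 in October. After rescaling to a common total, STAT3 and IFNAR2 passed, where 5.21% of all genes passed.

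**Figure D3:**
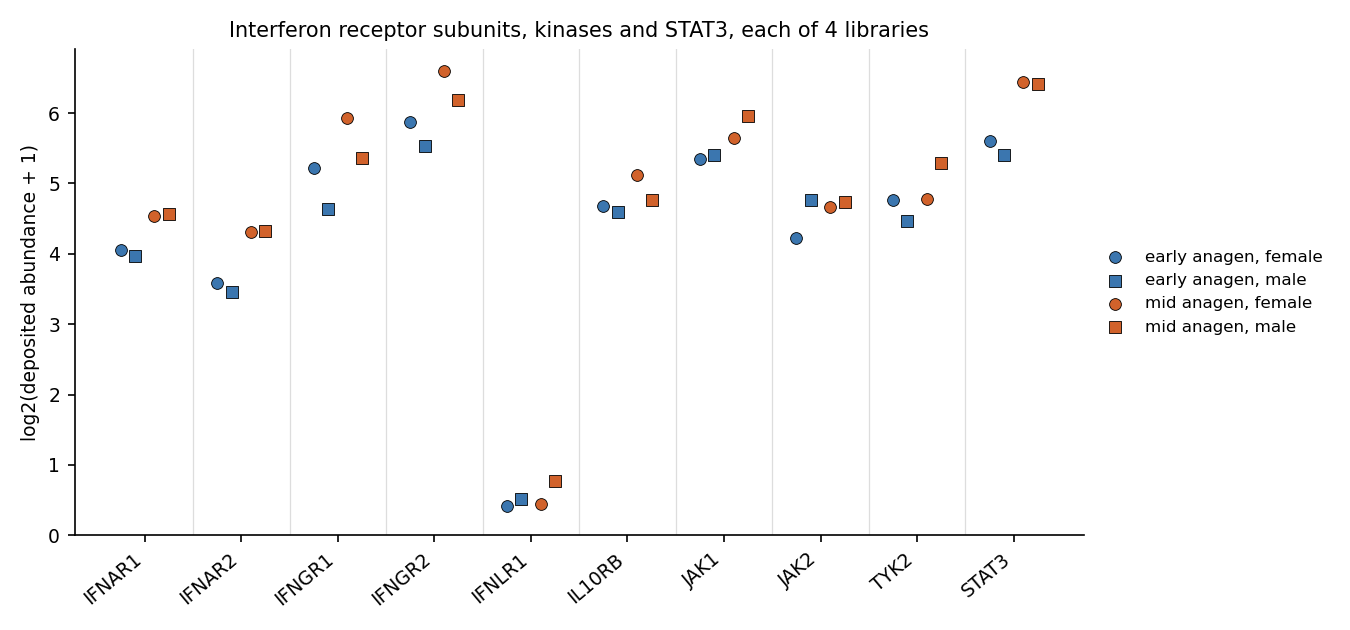
Abundance of interferon receptor subunits, their kinases and STAT3 in each of the 4 libraries on the log2(value + 1) scale, blue for early and orange for mid anagen, circles for female and squares for male. Both orange points lie above both blue points for 8 of the 9 tested genes, IFNAR1, IFNAR2, IFNGR1, IFNGR2 and STAT3 among them, while IFNLR1 stays under 1 unit of abundance.

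Interferon genes themselves were low or listed at 0. Of 41 loci described as an interferon of any type, 15 were at 0 in all 4 libraries, IFNG and IFNA among them, and 6 reached 1 in at least 2 libraries. The summed abundance of the 41 was 19.7 and 10.1 in April and 33.6 and 17.7 in October, so the phases overlapped. IFNE, the interferon of epithelia, was at 3.46 and 1.35 in April and 3.25 and 0.941 in October, higher in the female library of both phases. IFNK, the keratinocyte interferon, was listed at 0 in 3 libraries and at 0.0203 in the mid female. The highest single value was 5.86, in the mid female library, for LOC102180492, described as interferon omega-1. Most of these loci, 37 of 41, have no symbol and belong to families of near copies, between which reads may have been divided, so their single values are uncertain.

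Sensors of foreign nucleic acid and their adaptors, which trigger interferon production, had a median log2 difference of 0.36 over 13 tested genes. Of the 13, 10 were higher and 1 lower in both mid libraries (31.5% and 30.9% of all genes), 4 had an unadjusted p under 0.05, all of them higher (13.2% of all genes), and 0 passed over all genes in limma. DDX58, which encodes the RNA sensor RIG-I, was at 1.91 and 1.86 in April and 3.67 and 4.98 in October (log2 fold change 0.87, SE 0.20, limma adjusted p = 0.0848). DHX58, a relative of RIG-I, was at 8.03 and 7.62 in April and 10.1 and 11.3 in October. MAVS, the mitochondrial adaptor of these sensors, was at 19.0 and 18.6 in April and 23.9 and 25.5 in October, and MYD88, an adaptor of Toll-like receptors, at 16.2 and 15.9 in April and 19.9 and 23.2 in October. In all 4 genes the early libraries nearly coincided and lay below both mid libraries.

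Other targets of type I interferon were compared in the same fit. Over 28 tested targets the median log2 fold change was 0.10, with 14 higher and 3 lower in both mid libraries (31.5% and 30.9% of all genes). In limma 0 of the 28 passed over all genes, and 2 had an unadjusted p under 0.05, where 27.9% of all genes did. Those were XAF1, a pro-apoptotic protein, which was at 2.90 and 1.49 in April and 5.80 and 4.14 in October, and BST2, the membrane tether that holds back budding viruses, which was at 6.84 and 7.56 in April and 5.47 and 4.81 in October. IFIT5, of the same family as IFIT2 and IFIT3, was at 15.7 and 13.6 in April and 18.1 and 19.5 in October (log2 fold change 0.34, SE 0.15). DTX3L, a ubiquitin ligase, was at 8.77 and 8.64 in April and 11.7 and 10.6 in October. RSAD2, the antiviral enzyme viperin, named after its values had been seen, was under 1 in every library and untested, at 0.0257 and 0.0118 in April and 0.323 and 0.308 in October.

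Genes of antigen presentation and other targets of interferon gamma had a median log2 difference of -0.29 over 13 tested genes, and 0.04 once libraries were rescaled to a common total, where the median of all genes was 0.32. Of the 13, 6 were lower and 3 higher in both mid libraries, as were 30.9% and 31.5% of all genes. With an unadjusted p under 0.05 there were 4 lower and 2 higher ones, beside 14.7% and 13.2% of all genes, and 0 passed over all genes in limma. Those 4 lower genes, PSMB8, PSMB9, PSME1 and PSME2, encode parts of the immunoproteasome, which cuts proteins into peptides for presentation, and of its activator. PSMB9, a catalytic subunit, was at 12.8 and 17.7 in April and 6.79 and 8.995 in October (log2 fold change -0.86, SE 0.22, limma adjusted p = 0.0932). PSMB8, another catalytic subunit, was at 53.8 and 65.3 in April and 33.1 and 40.2 in October, and PSME2, an activator subunit, at 97.9 and 113 in April and 64.4 and 67.7 in October. TAPBP, which loads peptides onto class I molecules, went the other way, at 101 and 99.9 in April and 143 and 159 in October (log2 fold change 0.58, SE 0.16, limma adjusted p = 0.101). It passed after rescaling to a common total, where 5.21% of all genes passed. The 3 proteasome genes given here kept log2 fold changes below 0 there without passing.

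**Figure D4:**
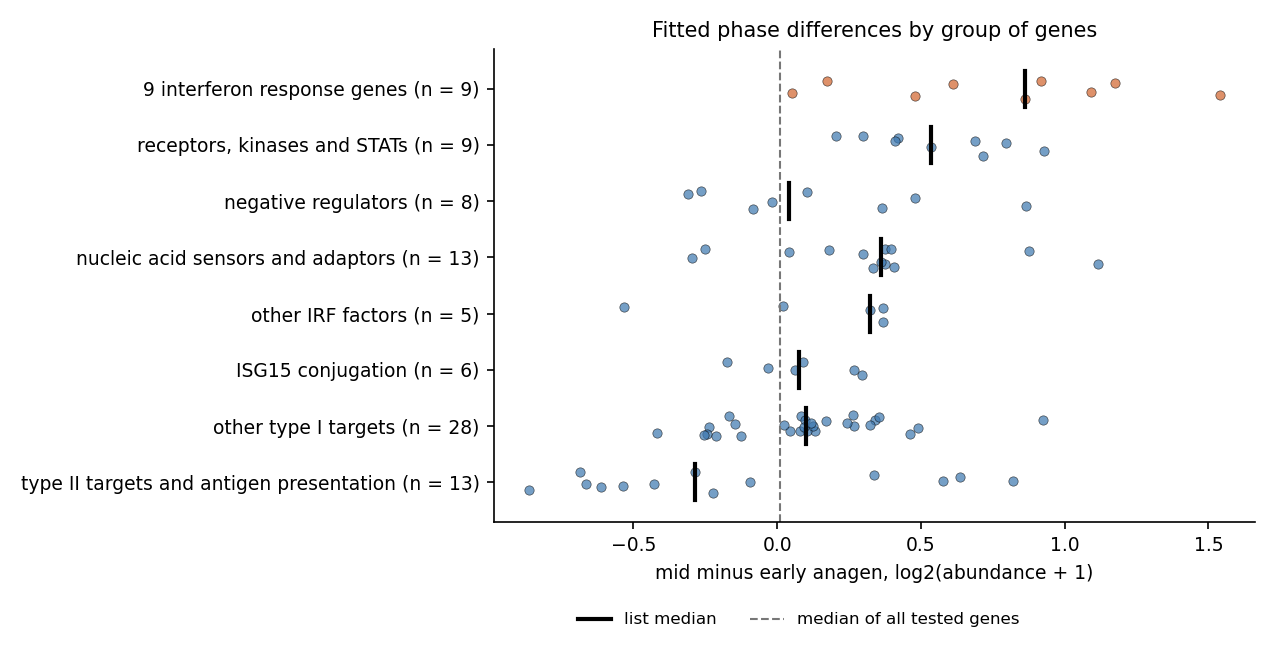
Fitted mid minus early differences on the log2(value + 1) scale for the 9 interferon response genes (orange) and for tested genes of 7 other groups of the pathway (blue), with the median of each group (black bar) and of all tested genes (dashed line). The group medians run from 0.86 for the 9 genes to -0.29 for type II targets and antigen presentation.

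Brakes on the pathway were mixed, with a median log2 difference of 0.04 over 8 tested genes. Of the 8, 3 were higher and 2 lower in both mid libraries (31.5% and 30.9% of all genes). SOCS3, an inhibitor of cytokine receptors, was at 5.60 and 4.95 in April and 7.71 and 14.0 in October. PIAS1, a ligase that inhibits STAT signalling, was at 7.16 and 6.70 in April and 9.84 and 10.3 in October (log2 fold change 0.48, SE 0.15, limma adjusted p = 0.119). LOC102180290, described as the hydrolase encoded by USP18, which removes ISG15 from proteins and blocks the type I receptor, was at 29.1 and 29.3 in April and 45.0 and 31.8 in October. PTPN1, a phosphatase that acts on JAK2 and TYK2, was at 32.4 and 33.9 in April and 26.9 and 27.9 in October.

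The other IRF genes had a median log2 difference of 0.32 over 5 tested genes. Of the 5, 2 were higher and 1 lower in both mid libraries (31.5% and 30.9% of all genes). IRF3, which starts the production of type I interferon, was at 67.0 and 54.9 in April and 79.4 and 78.1 in October. IRF2, which competes with IRF1 for its sites, was at 37.9 and 32.1 in April and 42.5 and 48.2 in October. IRF8, a factor best known from myeloid cells, was at 2.26 and 2.57 in April and 1.22 and 1.4998 in October, and IRF5 at 3.87 and 3.23 in April and 3.79 and 5.71 in October. The 6 tested genes of ISG15 attachment had a median of 0.08. Of the 6, 2 were higher and 1 lower in both mid libraries, beside the same shares of all genes. HERC5 and HERC6 are related ubiquitin-type ligases. HERC5 was at 1.95 and 2.35 in April and 2.72 and 2.99 in October, HERC6 at 12.5 and 11.9 in April and 9.995 and 11.4 in October, and ARIH1, another ubiquitin ligase, at 23.5 and 20.4 in April and 27.4 and 25.8 in October. In the groups of brakes, other IRF genes and ISG15 attachment 0 genes passed over all genes in limma, and at an unadjusted p under 0.05 there were 2 of 8, 1 of 5 and 0 of 6, where 27.9% of all genes tested had one.

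Male and female libraries were compared in a fit with phase and sex. None of the 9 genes passed in limma, where 0.144% of all genes did, and 2 had an unadjusted p under 0.05, against 11% of all genes. Those 2 were IRF7 and IRF1. IRF7 was higher in both male libraries than in both female libraries, the sole such gene of the 9, against 12.3% of all genes. Its male minus female difference was 0.76 at early and 0.62 at mid anagen on the log2 scale (fitted difference 0.69, SE 0.15, limma adjusted p = 0.156, higher in the male library in 2 of 2 phases). ISG15 was lower in both male libraries than in both female libraries, as 11.9% of all genes were, with a fitted difference of -0.38 (SE 0.20, limma adjusted p = 0.569). IRF1 was higher in the male library of each phase, by 0.42 at early and 1.41 at mid anagen (fitted difference 0.92, SE 0.27, limma adjusted p = 0.283). After rescaling to a common total IRF1 passed (adjusted p = 0.0174), where 3.18% of all genes passed. STAT2 differed least between the sexes in each phase, with a fitted difference of 0.02 and a 95% interval from -0.33 to 0.37.

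**Figure D5:**
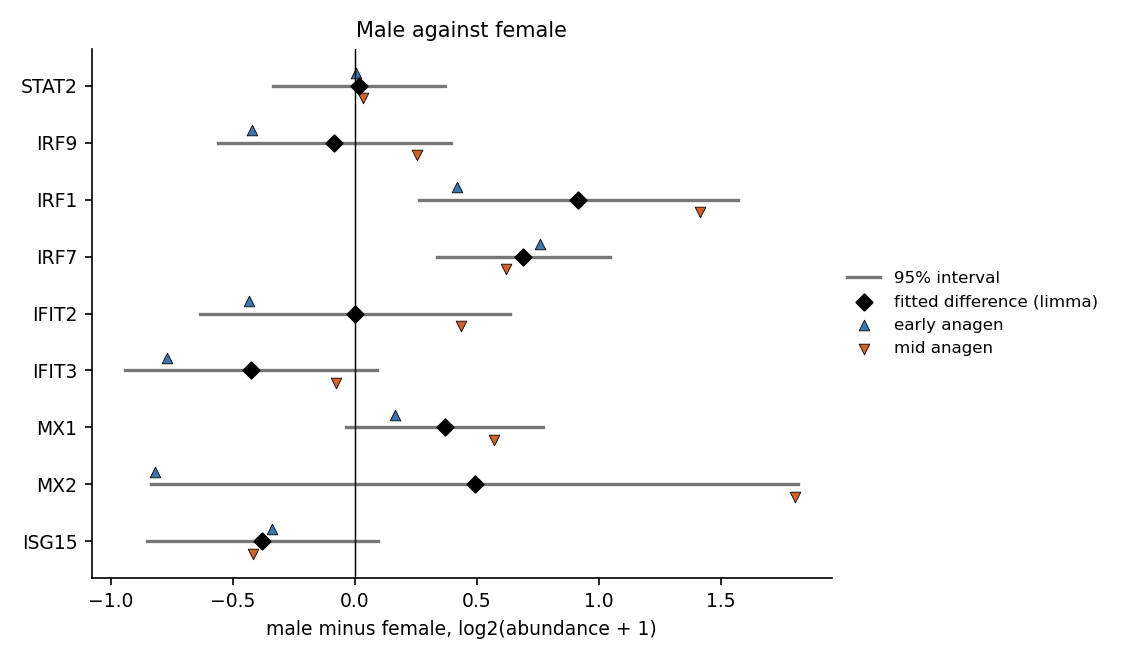
Male minus female for the 9 genes on the log2(value + 1) scale, with the fitted difference (diamond), its 95% interval (line), and the difference at early anagen (blue triangle) and at mid anagen (orange triangle). The intervals of IRF7 and IRF1 lie above 0 and the other 7 cross it.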

How the data were processed

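The authors deposited 1 table per library with 1 abundance per gene, a signal of unstated unit that is not a count and is taken as normalised for transcript length, as kallisto's TPM is. Per the submitters' processing notes, kallisto 0.46.1 and sleuth 0.30.0 were used. No source used here states the build, the annotation or how transcripts were summed to genes. Library totals differ, so the values appear to have been rescaled between libraries. RefSeq's table of the ARS1.2 assembly was used only for which genes neighbour each other.

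The log2(value + 1) scale was used for limma 3.58.1 (R 4.3.3, intensity trend), on 12486 genes with at least 1 in at least 2 libraries. Fold changes are on that scale and understate those of low genes. Phase was the only term for mid against early anagen, and phase and sex were the terms for male against female. Benjamini-Hochberg adjustment ran over all genes tested. Simulated data were used to try only the fit with phase as the sole term, not the fit with sex, and the share of differences recovered is not given here. With 2 libraries per phase, p-values reflect only variation among these libraries. The variance used for a gene is not its own spread alone, since limma draws it towards the intensity trend fitted across genes. With phase as the sole term, the spread within a phase is also the difference between its male and female libraries.

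The 9 genes and the 8 lists of other pathway genes (129 names, 105 found, 8 of them by description after the files were seen) were chosen with earlier results of these data known. Named genes are the 9, up to 4 of each list with the smallest p, all ligands and receptors found and the 3 genes closest to IFIT3. JAK1, JAK2, TYK2, UBE2L6, RSAD2, PSME1, ICAM1, the unnamed interferon loci and the marker genes lie outside this rule and were added after their values were seen. Alternatives were pseudocounts of 0.1 and 5, no filter, a filter of 5, a common total, leaving out each library, a replicate block, and for sex no phase term. Some genes of the pathway are not reported here.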

Additional observations from a re-analysis of the deposited data

Results flagged for a closer look

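MX2 differed by -0.39 between the mid and early female libraries and by 2.23 between the male libraries on the log2(value + 1) scale, so the sexes went opposite ways between the phases. The same 4 values put the male library below the female at early anagen (-0.82) and 1.80 above it at mid anagen. IRF7 also had opposite signs between the phases, at 0.12 in the female and -0.016 in the male libraries, both near 0. Male minus female was -0.43 at early and 0.44 at mid anagen for IFIT2, and -0.42 and 0.25 for IRF9. The difference between the sexes in these phase differences was not tested, since a term for it leaves no residual degrees of freedom. Of all tested genes, 23.5% had opposite signs in the female and male libraries between the phases, and 42.2% had opposite signs of male minus female in the 2 phases.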

How the results depend on the processing

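With 2 libraries per phase the fit as described called 0 of the 9 genes for phase and 0 for sex in limma (5 and 2 at an unadjusted p under 0.05), and 0 of 83 other pathway genes for phase (21 at an unadjusted p under 0.05, where 27.9% of all genes had one). With each library rescaled to a common total, 1 of the 9 (IFIT2) and 4 of the 83 pathway genes passed for phase, where 5.21% of all genes passed. For sex 1 of the 9 passed there, where 3.18% of all genes did. With the replicate number as a block, which is the same as sex, 4 of the 9 passed for phase (IFIT2, IFIT3, MX1 and IRF1, where 14.3% of all genes passed) and 10 pathway genes, 7 higher and 3 lower. Same-numbered libraries deviated together with r = 0.292 over 12486 genes, but no label says that a number marks shared animals. The labels do give the sex of each library, and sex was balanced over the phases. With 1 library left out, the median log2 fold change of the 9 ran from 0.46 without the mid male library to 1.13 without the mid female library. Of the fold changes of the 9, 3 reversed in an alternative, all without passing. For phase these were ISG15 without the mid female library (-0.036) and IRF7 without the early female (-0.33) or the mid male library (-0.26). Without 1 library the fold change ran from -0.04 to 0.38 for ISG15 and from -0.33 to 0.43 for IRF7. For sex, IFIT2 was at -0.43 with a pseudocount of 0.1. The cause was not tested. With pseudocounts of 0.1 and 5 and a filter of 5 the counts for phase were 0, but 0.144%, 0.344% and 0.557% of all genes passed there, and with no filter 0 of 17322 did, so these counts say little. For sex the counts were 0 as well, where 0.368%, 0.384%, 0.987% and, with no filter, 0 of 17322 genes passed. With a filter of 5, IFIT2, IRF1 and ISG15 were not tested. Leaving out a library was not run in the fit for sex, where no degrees of freedom would remain. Read depth is unknown, so the precision of values under 1, as in early IFIT2, cannot be given.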

Other observations

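LOC102168687, chosen after its values were seen and listed with no description, lies between IFIT5 and IFIT3 in the RefSeq gene order, with a pseudogene beside it. It was at 12.5 and 1.59 in April and 39.0 and 18.0 in October. Both mid libraries lay above both early libraries (log2 fold change 2.22, SE 0.80, limma adjusted p = 0.153). ICAM1, an adhesion molecule induced by interferon gamma and by NF-kappaB signals, was also chosen after its values were seen and was at 6.83 and 5.50 in April and 3.23 and 36.5 in October. Its log2 fold change of 0.82 had an SE of 0.96. It was highest in the mid male library, as were 25.8% of all tested genes.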
